A study of Mus musculus with 6 samples.

Results

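The receptors and co-receptors through which hepatocytes receive Wnt signals are described here as 10 genes of the 25184 in a count table of cultured mouse hepatocytes. The genes, *Fzd1*, *Fzd4*, *Fzd5*, *Fzd7*, *Fzd8*, *Lrp5*, *Lrp6*, *Lgr4*, *Ryk* and *Gpc1*, were chosen as a list of symbols, and each symbol matched 1 row of the table. Primary hepatocytes came from chow-fed mice by enzymatic digestion of the left lateral liver lobe and a density gradient, were kept overnight on collagen in a serum-containing medium, and were then harvested for stranded mRNA sequencing. All 6 libraries carry floxed *Sucnr1* alleles, with loxP sites on either side of exon 2 of the gene of the succinate receptor. The 3 control libraries (*Sucnr1* fl/fl, *Alb-Cre* -/-, replicates 1, 2 and 3) lack Cre, and the 3 Hep-*Sucnr1* KO libraries (*Sucnr1* fl/fl, *Alb-Cre* +/-, replicates 3, 4 and 5) express Cre from the hepatocyte-specific *Alb* promoter. Cre was present in the KO libraries alone, so that effects of Cre and of the deletion cannot be told apart. The age of these mice is not given in the sources used here. RNA of *Sucnr1* fl/fl replicate 1 and Hep-*Sucnr1* KO replicate 3 was extracted on day 1, and RNA of the other 4 libraries on day 2. The labels number the libraries without saying that each came from a separate mouse, so p-values measure the spread between these libraries, which may be technical in part.

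Frizzled proteins bind secreted Wnt ligands at the cell surface, and LRP5 or LRP6 joins them in a complex that keeps beta-catenin from being degraded, after which beta-catenin works with TCF/LEF factors in the nucleus. LGR4 binds R-spondins, which keep the ubiquitin ligases ZNRF3 and RNF43 from removing frizzled receptors from the membrane, RYK is a Wnt receptor related to receptor tyrosine kinases, and GPC1 is a heparan sulfate proteoglycan of the cell surface. In the liver, Wnt ligands made by endothelial cells near the central vein maintain the pericentral program of hepatocytes, of which the glutamine synthetase gene *Glul* is the best known target.

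The libraries held between 30504248 and 38770694 counts, and levels are given as CPM, counts per 1000000 of a library size scaled by TMM (trimmed mean of M values). *Sucnr1* itself stood at 6.71, 3.55 and 3.40 CPM in *Sucnr1* fl/fl replicates 1, 2 and 3, and at 2.66, 0.827 and 0.152 CPM in Hep-*Sucnr1* KO replicates 3, 4 and 5. The genotypes did not overlap, but KO replicate 3, the KO library of day 1, lay close to the lower controls. The fitted log2 fold change was -2.23 (SE 0.54), with an adjusted p of 0.998 over all genes in edgeR's quasi-likelihood test. Counts are per gene and would include reads from exons that Cre does not remove, so the gene total checks the labels only in part. The source of the *Sucnr1* counts left in the KO libraries was not tested. Hepatocyte markers such as *Alb* and *Apob* summed to 66746 to 87480 CPM in the controls and 56956 to 91408 CPM in the KO libraries.

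All 10 receptor genes were detected in every library, with between 88 counts (*Fzd4* in KO replicate 3) and 5327 counts (*Lrp6* in fl/fl replicate 1), and all 10 passed the filter on low counts. Per kilobase of exon, the scale on which genes can be compared, *Fzd7* had the highest mean level at 8.64 CPM per kb ± 1.39 (SD, n = 6 libraries). *Lrp6* (6.31 ± 1.93), *Lrp5* (5.92 ± 0.921), *Fzd1* (5.57 ± 1.81), *Ryk* (5.49 ± 0.472) and *Lgr4* (5.06 ± 0.837) followed within a narrow range. *Gpc1* (2.97 ± 0.897), *Fzd5* (2.56 ± 0.416), *Fzd8* (1.81 ± 0.449) and *Fzd4* (0.616 ± 0.195 CPM per kb) were lower. Thus 2 frizzled genes, both LRP co-receptors, *Ryk* and the R-spondin receptor were the more abundant of these mRNAs. Of the 9 pairs of neighbours in this order, 3 had the same gene higher in 6 of 6 libraries: *Lgr4* was 1.77-fold above *Gpc1*, *Fzd5* was 1.44-fold above *Fzd8* and *Fzd8* was 2.96-fold above *Fzd4*. Each of these 3 pairs reached p = 0.03125 in a two-sided exact permutation test of sign changes, the smallest that 6 libraries allow, and an adjusted p of 0.0938 over the 9 pairs. The other 6 pairs of neighbours, those from *Fzd7* to *Lgr4* and the pair *Gpc1* and *Fzd5*, had exact permutation p-values between 0.0625 and 0.906, so no pair of neighbours passed the threshold after adjustment. The order was itself taken from these 6 libraries, and 3 pairs at the smallest p cannot pass after adjustment over 9 pairs. These comparisons therefore describe the order and do not test it. With the longest transcript as the length, *Lrp6* moved to 9.21 and *Ryk* to 8.10 CPM per kb and 4 genes kept their place in the order.

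Among the 5 frizzled genes of the list, *Fzd7* is the most abundant, *Fzd1* varied most between libraries and *Fzd4* had the lowest level and groups that did not overlap. The promoter windows of these 3 genes are shown for that reason, as the 250 bases upstream of the RefSeq start (GRCm38.p6), at chr1:59481897-59482146 on the plus strand for *Fzd7*, chr5:4758217-4758466 on the minus strand for *Fzd1* and chr7:89404116-89404365 on the plus strand for *Fzd4*. Capitals mark 2 motifs, each searched on both strands and with overlapping matches counted apart. The first motif is CTTTGA, a form of the core of TCF/LEF sites, and is called the TCF/LEF core here. Other forms of that core were not searched. The second is the box bound by SP1-like factors, called the GC box here, GGGCGG.
Fzd7: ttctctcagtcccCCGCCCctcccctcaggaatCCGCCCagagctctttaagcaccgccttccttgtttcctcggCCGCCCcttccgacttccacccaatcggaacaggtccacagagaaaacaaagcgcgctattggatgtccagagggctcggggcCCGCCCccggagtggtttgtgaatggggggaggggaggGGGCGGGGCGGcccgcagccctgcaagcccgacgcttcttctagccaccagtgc
Fzd1: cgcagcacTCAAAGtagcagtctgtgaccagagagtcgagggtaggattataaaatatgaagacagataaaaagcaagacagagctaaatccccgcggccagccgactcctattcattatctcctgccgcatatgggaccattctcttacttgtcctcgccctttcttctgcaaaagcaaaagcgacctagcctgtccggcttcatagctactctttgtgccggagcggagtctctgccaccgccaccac
Fzd4: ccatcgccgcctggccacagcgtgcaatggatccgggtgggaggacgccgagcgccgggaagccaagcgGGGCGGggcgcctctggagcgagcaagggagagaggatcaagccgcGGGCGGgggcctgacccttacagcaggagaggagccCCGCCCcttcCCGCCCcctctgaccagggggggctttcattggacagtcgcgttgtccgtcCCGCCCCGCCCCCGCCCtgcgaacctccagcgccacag
*Fzd7* held 6 GC boxes and *Fzd4* 7, and neither held a TCF/LEF core. *Fzd1* held 1 TCF/LEF core and no GC box. Of 32851 mouse promoter windows of the same length, 32.74% held a GC box and 13.83% a TCF/LEF core. The GC content was 65.2% in *Fzd7*, 51.2% in *Fzd1* and 72.8% in *Fzd4*, against a median of 52.4% over all windows. Promoters were matched for 6 of the 10 genes. *Fzd5* held 9 GC boxes, *Ryk* 2 and *Lgr4* none, and none of the 3 held a TCF/LEF core. These matches describe letters in a window and are not evidence of binding.

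The question of the genotype comparison was whether loss of *Sucnr1* in hepatocytes goes with other levels of these receptor mRNAs. None of the 10 genes passed an adjusted p of 0.05 in edgeR's quasi-likelihood test (model of extraction day and genotype, Benjamini-Hochberg over 15105 genes). The background was the same, with 0% of all genes tested past that threshold. In the fit, 8 of the 10 genes had a log2 fold change below 0 and 2, *Fzd7* and *Lrp5*, above 0, where 49.5% of all genes tested were below 0. The median over the 10 genes was -0.19, beside 0.00 over all genes tested. Without adjustment, *Fzd4*, *Fzd8*, *Lrp6* and *Gpc1* had p below 0.05, all toward lower levels in the KO libraries. Over all genes, 1.81% were called in this way toward lower and 1.91% toward higher levels, 273 and 289 genes. The groups did not overlap for 2 of the 10 genes, *Fzd4* and *Gpc1*, both lower in the KO libraries, and 4.04% of all genes tested did not overlap in that direction. DESeq2, run as an alternative, called 13 genes in the whole table and none of the 10. Among the 10 it gave an adjusted p to *Lrp5* and *Lrp6* alone, so the others could not be called there. The list of 10 was drawn up with earlier results of these data known, so these counts are descriptions. Hepatocyte preparations are bulk samples, in which fewer cells of a type and less RNA per cell cannot be told apart.

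**Figure D1:**
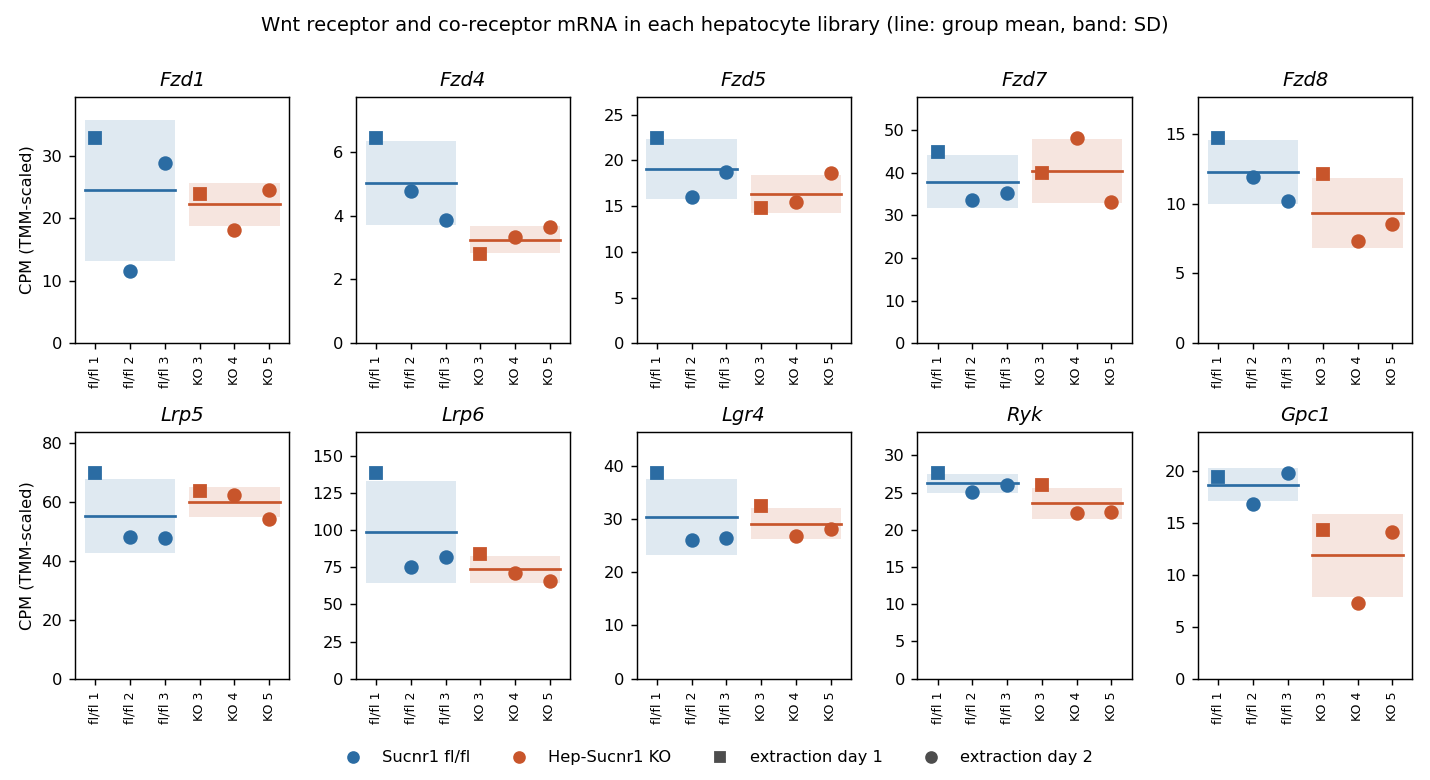
CPM of each of the 10 receptor genes (vertical axis, from 0, a scale per gene) in the 6 libraries, blue for Sucnr1 fl/fl and orange for Hep-Sucnr1 KO, squares for extraction day 1 and circles for day 2, with the group mean as a line and the SD as a band (n = 3). The fl/fl library of day 1 is the highest of the 6 in 8 of the 10 panels, and only the panels of Fzd4 and Gpc1 show groups that do not overlap.

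Of the 5 frizzled receptors, 4 had fitted values below 0 and 1 above 0, and none passed the adjusted test. *Fzd4*, which also serves as receptor of norrin in blood vessels, stood at 6.45, 4.78 and 3.86 CPM in *Sucnr1* fl/fl replicates 1, 2 and 3, and at 2.78, 3.34 and 3.64 CPM in Hep-*Sucnr1* KO replicates 3, 4 and 5. Every KO library lay below every control, the closest pair being control replicate 3 and KO replicate 5. The fitted level was 1.52-fold lower in the KO libraries (log2 fold change -0.61, SE 0.24, 95% interval -1.19 to -0.03, adjusted p = 0.998 in edgeR). The mean difference was -1.18 (log2) on day 1 and -0.29 on day 2. Without control replicate 1 the fitted log2 fold change was -0.31, and without KO replicate 3 it was -0.32.

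*Fzd8* was at 14.7, 11.9 and 10.2 CPM in the controls and at 12.1, 7.32 and 8.53 CPM in the KO libraries. KO replicate 3 lay above 2 of the 3 controls, so the groups overlapped, while within each extraction day the KO libraries were lower than the controls. The log2 fold change was -0.41 (SE 0.14, 95% interval -0.74 to -0.08, adjusted p = 0.998 in edgeR), -0.28 on day 1 and -0.47 on day 2. It ranged from -0.49 to -0.32 with any 1 library left out.

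*Fzd5* had 22.5, 16.0 and 18.7 CPM in the controls and 14.8, 15.5 and 18.7 CPM in the KO libraries, with the groups overlapping. Its log2 fold change was -0.22 (95% interval -0.61 to 0.18), and with 1 library left out it lay between -0.35 (without KO replicate 5) and -0.02 (without control replicate 1). *Fzd7* had 44.9, 33.6 and 35.1 CPM in the controls and 39.9, 48.2 and 33.2 CPM in the KO libraries. The KO group held both the highest and the lowest *Fzd7* level of the 6 libraries. Its log2 fold change of 0.11 (95% interval -0.30 to 0.51) turned to -0.10 without KO replicate 4.

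*Fzd1* showed the widest range, with 32.9, 11.6 and 28.9 CPM in the controls and 23.9, 18.2 and 24.6 CPM in the KO libraries. The KO libraries fell between the controls, of which replicate 1 was 2.84-fold above replicate 2. The log2 fold change was -0.10 with a 95% interval of -0.89 to 0.69, an interval that holds changes of either sign. Left-out libraries moved it from -0.45 (without control replicate 2) to 0.28 (without control replicate 3).

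The make-up of the frizzled family had *Fzd7* and *Fzd1* as its largest parts in every library. Of the summed CPM per kb of the 10 frizzled genes, the 5 described above made up between 94.1% and 97.9% in each library. *Fzd7* made up 41.3% ± 4.05 of it in the controls and 46.3% ± 7.34 in the KO libraries (SD, n = 3). *Fzd1* made up 27.5% ± 9.10 and 27.7% ± 5.03, and its lowest share, 17.1%, was that of control replicate 2. The share of *Fzd4* was 3.69% ± 0.79 in the controls and 2.53% ± 0.44 in the KO libraries, and on this scale its groups overlapped. The summed level was 20.5 ± 4.46 CPM per kb in the controls and 19.2 ± 0.85 in the KO libraries. Of the other frizzled genes, *Fzd6* and *Fzd9* reached at most 2.71% and 2.93% of the sum, *Fzd3* 0.12% and *Fzd10* 0.15%, and *Fzd2* had 2 counts in 1 library and 0 in the other 5.

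**Figure D2:**
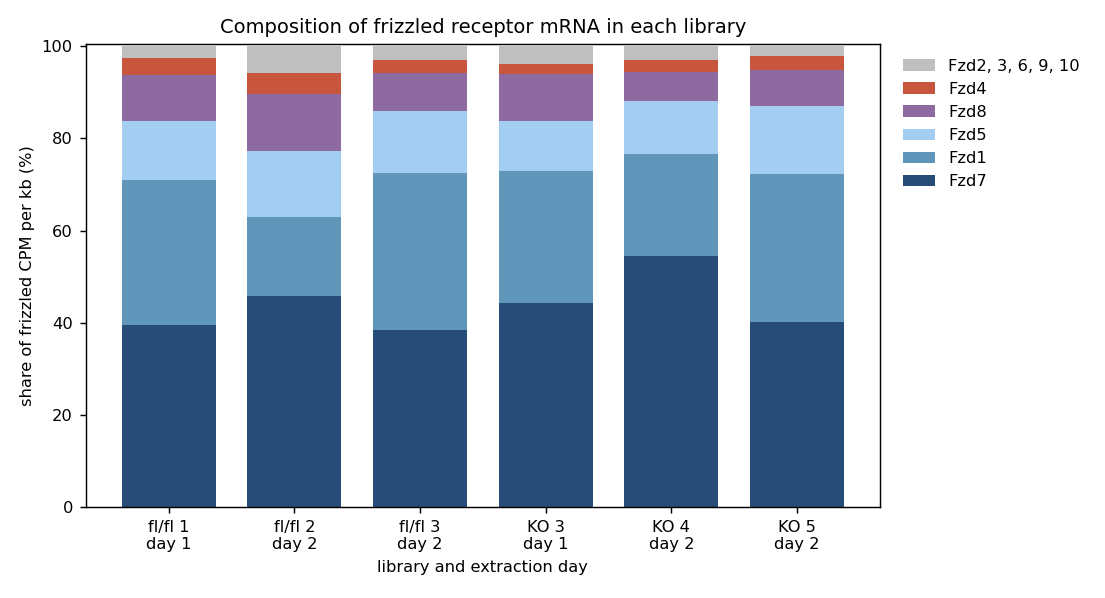
Share of each frizzled gene in the summed CPM per kb of exon of the 10 frizzled genes (vertical axis, percent) in each of the 6 libraries, stacked, with Fzd2, Fzd3, Fzd6, Fzd9 and Fzd10 in grey. Fzd7 takes the largest share in every library, from 38.4% to 54.4%, and the Fzd1 share is smallest in fl/fl replicate 2.

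The paired co-receptors LRP5 and LRP6 had fitted differences of opposite sign. *Lrp6* lies on the minus strand of chromosome 6 (GRCm38, 134446476 to 134566965) and *Lrp5* on the minus strand of chromosome 19 (3584828 to 3686564). *Lrp6* stood at 139, 75.4 and 82.3 CPM in the controls and at 83.8, 71.5 and 66.0 CPM in the KO libraries. Control replicate 1 lay far above the other 5 libraries, and KO replicate 3 lay above the other 2 controls, so the groups overlapped. The log2 fold change was -0.37 (SE 0.14, 95% interval -0.71 to -0.04, adjusted p = 0.998 in edgeR and 0.652 in DESeq2). It was -0.72 on day 1 and -0.20 on day 2, and -0.20 without control replicate 1.

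*Lrp5* was at 69.8, 48.2 and 47.8 CPM in the controls and at 63.6, 62.2 and 54.2 CPM in the KO libraries. The day 1 control was the highest of the 6 and the 2 day 2 controls were the lowest. The log2 fold change was 0.14 (SE 0.13, 95% interval -0.16 to 0.44). It was -0.13 on day 1 and 0.28 on day 2, and stayed above 0 in the fit with any 1 library left out (0.04 to 0.28).

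The ratio of *Lrp6* to *Lrp5* per length, which does not depend on the scaling of the library, was 1.41, 1.11 and 1.23 in the controls and 0.939, 0.818 and 0.868 in the KO libraries. *Lrp6* mRNA exceeded *Lrp5* mRNA in each control and was below it in each KO library, and the groups did not overlap. The means were 1.25 ± 0.151 and 0.875 ± 0.0611 (SD, n = 3), a log2 difference of -0.51. By exact permutation (two-sided) p was 0.1, which is as small as 3 against 3 can give, so the design could not pass the threshold. The log2 difference was -0.59 on day 1 and -0.47 on day 2, and lay between -0.59 and -0.42 with any 1 library left out. The ratio of counts, without lengths, was 1.99, 1.56 and 1.72 in the controls and 1.32, 1.15 and 1.22 in the KO libraries. Whether *Lrp6* exceeds *Lrp5* in a library therefore depends on the lengths taken for the genes, and the difference between genotypes does not.

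**Figure D3:**
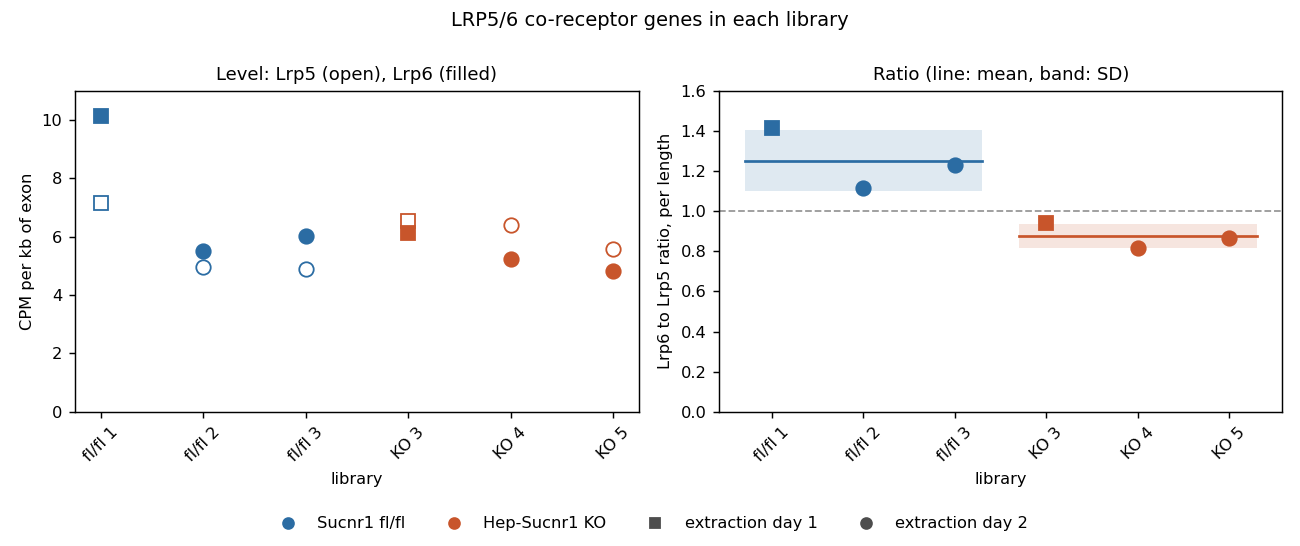
Left, CPM per kb of exon of Lrp5 (open symbols) and Lrp6 (filled symbols) in each library, and right, the ratio of Lrp6 to Lrp5 per length, with the group mean as a line and the SD as a band (n = 3), blue for Sucnr1 fl/fl, orange for Hep-Sucnr1 KO, squares for day 1 and circles for day 2. The 3 controls lie above a ratio of 1, from 1.11 to 1.41, and the 3 KO libraries below it, from 0.818 to 0.939.

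*Lgr4*, the R-spondin receptor, was at 38.6, 26.1 and 26.5 CPM in the controls and at 32.5, 26.8 and 28.1 CPM in the KO libraries. The libraries of day 1 were the highest of each genotype and the other 4 lay close together. The log2 fold change was -0.04 (SE 0.11), and its 95% interval of -0.31 to 0.22 was among the narrowest of the 10 genes. *Lgr4* made up 94.4% to 99.2% of the summed level per length of *Lgr4* and *Lgr5*. *Lgr5*, a beta-catenin target of the cells next to the central vein, varied between 0.395 and 2.78 CPM.

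*Ryk* varied least of the 10 genes, with 27.6, 25.0 and 26.0 CPM in the controls and 26.0, 22.3 and 22.4 CPM in the KO libraries. KO replicate 3 lay within the controls and the other 2 KO libraries lay below them. The log2 fold change was -0.16 (SE 0.10, 95% interval -0.39 to 0.08). It stayed between -0.20 and -0.13 with any 1 library left out.

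*Gpc1*, on the plus strand of chromosome 1 (GRCm38, 92831645 to 92860779), had the lowest fitted fold change of the 10 genes. It was at 19.5, 16.9 and 19.8 CPM in the controls and at 14.3, 7.29 and 14.1 CPM in the KO libraries, with every KO library below every control. The fitted level was 1.59-fold lower in the KO libraries (log2 fold change -0.67, SE 0.25, 95% interval -1.25 to -0.08, adjusted p = 0.998 in edgeR). The mean difference was -0.44 on day 1 and -0.84 on day 2. KO replicate 4 was the lowest library, and without it the log2 fold change was -0.41. Without KO replicate 5 it was -0.93, with an adjusted p of 0.68 in edgeR, the lowest of the 10 genes under any edgeR setting.

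Of the 3 glypican genes that passed the filter, *Gpc1* was far below *Gpc4* in level per length, and *Gpc3* had at most 10 counts in a library. *Gpc4* made up 89.0% to 95.7% of the summed glypican level per length and had a log2 fold change of -0.14 (95% interval -0.45 to 0.18). *Gpc1* made up 9.30% ± 1.83 in the controls and 6.56% ± 2.04 in the KO libraries (SD, n = 3), and on this scale the groups overlapped. *Gpc2*, *Gpc3* and *Gpc6* together stayed under 1% of it in each library.

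**Figure D4:**
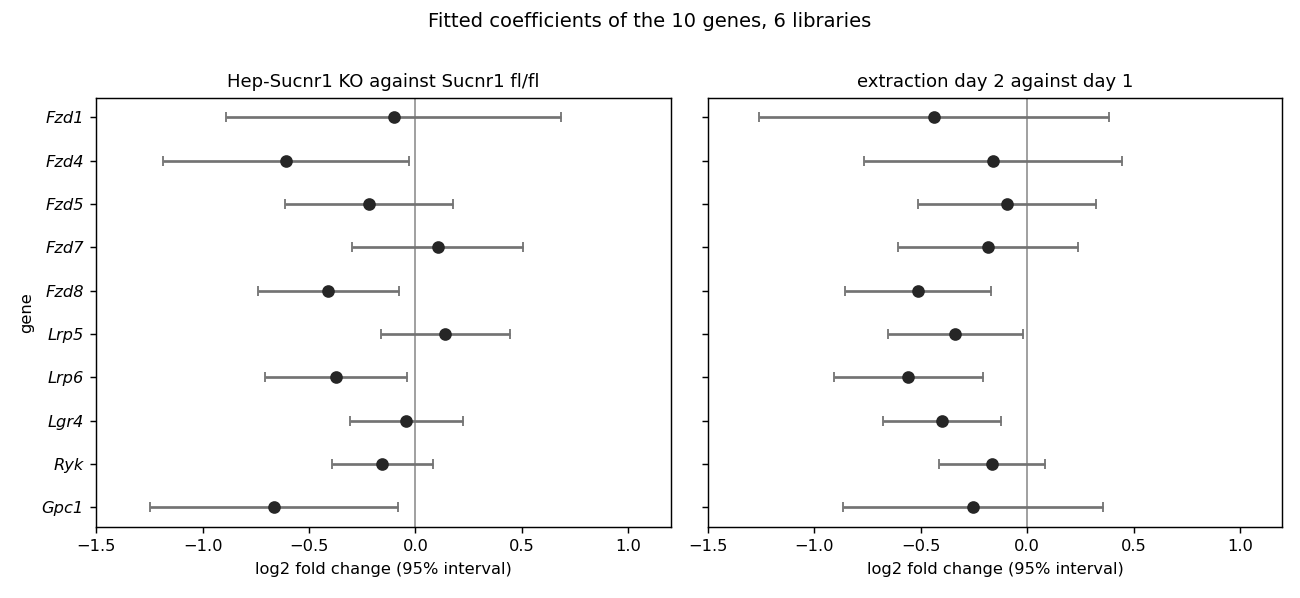
Fitted log2 fold changes of the 10 genes with their 95% intervals, for the KO over the control libraries (left) and for extraction day 2 against day 1 (right), from 1 model of 6 libraries. In the left panel 8 points lie below 0 and the intervals of Fzd4, Fzd8, Lrp6 and Gpc1 leave out 0 before adjustment, and in the right panel all 10 points lie below 0.

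The same model gives the difference between extraction days. All 10 genes had a fitted log2 fold change below 0 for day 2 against day 1, where 46.7% of all genes tested were below 0. None passed an adjusted p of 0.05 for the day in edgeR or DESeq2, and the background in edgeR was 0%. Without adjustment, 4 genes had p below 0.05, *Lrp6* (log2 fold change -0.56), *Fzd8* (-0.51), *Lgr4* (-0.40) and *Lrp5* (-0.34), and 2.33% of all genes tested did so in that direction. The medians were -0.30 over the 10 genes and 0.02 over all genes tested. Day 1 holds 1 library of each genotype, and control replicate 1 weighs on its mean. Without that library 7 of the 10 genes were lower on day 2, and *Fzd4* (0.32), *Fzd5* (0.21) and *Fzd7* (0.03) were above 0. In a model with the product of genotype and day, none of the 10 genes passed the adjusted threshold in edgeR or in DESeq2 and none had an unadjusted p below 0.05 in edgeR, where 557 of the 15105 genes had one.

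*Sucnr1* fl/fl replicate 1 was the highest library in 8 of the 10 genes, all but *Fzd7* and *Gpc1*, and it was the highest library for 18.2% of all genes tested. On a log2 scale the 10 genes stood at a median of 0.40 above their average over all 6 libraries in this library. The same median was -0.14 and -0.03 in control replicates 2 and 3, and 0.05, -0.20 and -0.10 in KO replicates 3, 4 and 5. Markers of sinusoidal endothelial and stellate cells also stood highest in control replicate 1, and markers of Kupffer cells, cholangiocytes and neutrophils did not. The 10 markers of sinusoidal endothelial cells summed to 115 CPM there and to 40.5 CPM in KO replicate 3, both of day 1. On day 2 the sums were 64.6 and 66.1 CPM in the controls and 72.5 and 65.6 CPM in the KO libraries, so the sums were lower in the KO on day 1 alone. In the fit of both days 9 of these 10 markers were below 0 for genotype, with a median of -0.30, and none passed the adjusted test. *Pecam1* was at 18.8, 11.4 and 12.0 CPM in the controls and 6.99, 11.4 and 9.13 CPM in the KO libraries. The 9 stellate cell markers summed to 36.9 CPM in control replicate 1, 10.6 to 16.1 CPM in the other controls and 8.95 to 15.5 CPM in the KO libraries, and 5 of the 6 tested were below 0. *Reln*, made by stellate cells, was at 9.36, 3.22 and 2.41 CPM in the controls and 2.31, 0.945 and 2.37 CPM in the KO libraries. *Des* had 0 counts in 3 libraries and *Col3a1* in 1. The 8 Kupffer cell markers summed to 28.5 to 103.5 CPM in the controls and 5.92 to 89.0 CPM in the KO libraries, with 33.2 CPM in control replicate 1 and the lowest sum in KO replicate 3. The 8 were all below 0 for genotype (median -0.44). For day 2 against day 1 all 8 were above 0, where the 10 receptor genes were below 0. In the same comparison 9 of the 10 sinusoidal endothelial markers and all 6 stellate cell markers tested were below 0, with medians of -0.24 and -0.71. Of the cholangiocyte markers tested 3 were below and 3 above 0, and all 3 neutrophil markers tested were above 0. Cholangiocyte markers summed to 350.3 to 513 CPM in the controls and 426 to 650.4 CPM in the KO libraries, with 464 CPM in control replicate 1. Neutrophil markers summed to at most 5.80 and 5.82 CPM in the 2 groups, with 0.910 CPM in control replicate 1. The part of other cell types in the receptor levels was not tested.

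**Figure D5:**
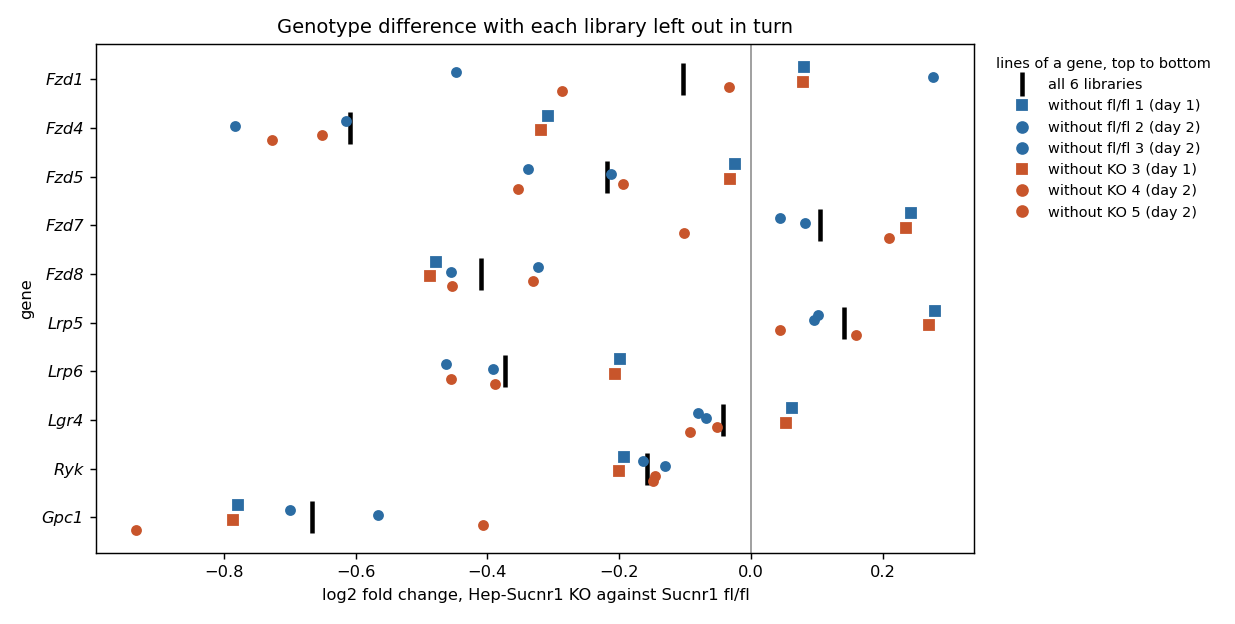
Fitted genotype difference (log2 scale, KO over control) for each of the 10 genes with all 6 libraries (black bar) and with each library left out in turn (symbols, blue for a left-out control, orange for a left-out KO library, squares for day 1). Fzd4, Fzd5, Fzd8, Lrp6, Ryk and Gpc1 stay below 0 and Lrp5 above 0, while Fzd1, Fzd7 and Lgr4 have points on both sides.

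Leaving out control replicate 1 or KO replicate 3 leaves 1 library on day 1, so that the genotype difference then rests on day 2. In either case 6 of the 10 genes remained below 0, and the median over the 10 genes was -0.11 without the control and -0.12 without the KO library. Without other single libraries the median was -0.33 (control replicate 2), -0.17 (control replicate 3), -0.17 (KO replicate 4) and -0.32 (KO replicate 5), against -0.19 with all 6. Without control replicate 1 or KO replicate 3 only *Fzd8* had an unadjusted p below 0.05 in edgeR. All 3 KO libraries and control replicate 3 carry indexes of the second block, while control replicates 1 and 2 carry indexes of the first. With this index block in the model none of the 10 genes had an unadjusted p below 0.05, while the standard errors were larger. In that model the log2 fold change was -0.86 (SE 0.37) for *Gpc1*, -0.34 (SE 0.23) for *Lrp6*, -0.31 (SE 0.23) for *Fzd8* and -0.25 (SE 0.34) for *Fzd4*, and for *Fzd1* it was -0.61 (SE 0.41). The genotype and the index block can be told apart only through control replicate 3.

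Of 14 other receptors and co-receptors, 13 had a row and 9 passed the filter. In the fit 3 of the 9 were above 0 and 6 below 0, and none passed the adjusted test or had an unadjusted p below 0.05 in edgeR. Their median was -0.22. *Fzd3* (log2 fold change 0.25, 95% interval -0.80 to 1.31) and *Adgra2*, a co-receptor for WNT7 ligands (-0.68, -1.80 to 0.43), had the highest and lowest values, both at less than 0.5 CPM. *Tspan12*, a tetraspanin that assists FZD4, was far more abundant, at 98.9 to 120.2 CPM in the controls and 95.6 to 122.5 CPM in the KO libraries. *Fzd2*, *Fzd10*, *Ror2* and *Ptk7* were below the filter. Among syndecans and the other glypicans, 5 of 6 tested genes were below 0, from *Sdc3* (-0.34) to *Sdc2* (0.00).

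Wnt ligands were scarce in these hepatocytes. Of 26 genes for ligands, R-spondins and ligand release, 17 had a row and 7 passed the filter, 4 above and 3 below 0. The 17 genes summed to 5.21 to 6.84 CPM in the controls and 5.49 to 5.63 CPM in the KO libraries. *Wnt9a* was at 1.64, 1.56 and 0.956 CPM in the controls and 0.949, 0.443 and 0.850 CPM in the KO libraries. The groups did not overlap, but control replicate 3 and KO replicate 3 were nearly equal. Of all genes tested, 4.04% did not overlap in that direction. Its log2 fold change was -0.90 (95% interval -1.76 to -0.05, adjusted p = 0.998 in edgeR), the lowest of the list, and the highest was that of *Wnt1* (0.48, -1.72 to 2.69). Of 15 extracellular inhibitors, 10 had a row and 4 passed the filter, all 4 below 0, from *Sfrp4* (-0.52) to *Notum* (-0.03). None of these genes passed the adjusted test in edgeR.

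Downstream of the receptors, no gene of the lists passed the adjusted test in edgeR. Of 8 genes of receptor turnover 7 passed the filter, 2 above and 5 below 0, between *Dvl2* (-0.19) and *Dvl1* (0.04). *Znrf3*, whose product removes frizzled receptors, had a log2 fold change of -0.15 (95% interval -0.58 to 0.27). Of 19 genes of the destruction complex and of beta-catenin transcription, 16 passed, 6 above and 10 below 0, between *Apc* (-0.25, -0.55 to 0.05) and *Bcl9* (0.49, -0.05 to 1.04). The 15 pericentral beta-catenin targets, which share *Axin2*, *Notum*, *Rnf43* and *Znrf3* with these lists, all passed the filter, 11 above and 4 below 0, with a median of 0.18. *Glul* had a log2 fold change of 0.12 (95% interval -0.73 to 0.97), *Axin2* of 0.04 (-0.96 to 1.05) and *Lgr5* of 0.18 (-1.41 to 1.76). The values of *Slc1a2*, a glutamate transporter, were 3.74, 4.90 and 7.45 CPM in the controls and 7.94, 37.6 and 4.83 CPM in the KO libraries. KO replicate 4, which held this high *Slc1a2* level, also held the highest summed level of the 15 targets, 5350 CPM, against 1319 to 3100 CPM in the other 5 libraries. In the same library *Gpc1*, *Fzd8* and *Ryk* were the lowest and *Fzd7* the highest of the 6. KO replicate 4 was the highest library for 19.3% of all genes tested, and the share for which it was the lowest was not computed. A link between the targets and the receptor genes was not tested.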

How the data were processed

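The authors trimmed stranded paired-end reads with Trim Galore 0.6.7, aligned them to GRCm38 with STAR 2.7.10a and counted read pairs per Ensembl gene with featureCounts, using strand. The deposited values are raw counts of 25184 genes in 6 libraries, not normalized and not pooled. The handling of multi-mapping read pairs is not given in the sources used here. Of the 50-base windows of the longest transcript, 0.135% were shared with another gene for *Fzd4*, 0.057% for *Lrp5* and none for the other 8 genes, and no exon of the 10 genes overlapped another gene on the same strand.

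Symbols, exon lengths and positions came from GENCODE M21 (GRCm38), in which 25096 gene identifiers had a symbol. A gene was kept where its DESeq2-normalized counts averaged over 5 (15105 genes). edgeR 4.0.16 (R 4.3.3) was used with TMM factors, a quasi-likelihood fit of extraction day and genotype, Benjamini-Hochberg adjustment over all genes and a threshold of 0.05. The common coefficient of biological variation came to 0.206. CPM used TMM-scaled library sizes, and levels per kb used the union of exons. Intervals are 95% intervals from the same fit, differences within a day were taken on log2 CPM with an offset of 0.1 CPM, and deviations of a library on log2 CPM after adding 0.5 counts. Ratios and neighbouring levels were compared with exact permutation tests (SciPy 1.17.1). The fit was tested on simulated data. Alternatives were DESeq2 1.42.0, its size factors, library size alone, no filter, filterByExpr, no extraction day, the index block, day 2 alone, the longest transcript and each library left out. Promoters are RefSeq's.

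The 10 genes, the pathway and marker lists and the tests were chosen with earlier results of these data known. The genes named are the 10, *Sucnr1*, in each pathway list the genes with the highest and lowest fitted fold change, *Glul*, *Axin2* and *Lgr5*, and the families of the 10 genes. *Tspan12*, *Znrf3*, *Pecam1*, *Des*, *Col3a1* and the other marker genes were named after their values were seen.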

Additional observations from a re-analysis of the deposited data

How the results depend on the processing

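The count of 0 receptor genes past an adjusted p of 0.05, for genotype, for extraction day and for their product, held under every alternative run. Over the whole table the count of 0 genes became 13 with DESeq2, which gave an adjusted p to 2 of the 10 receptor genes, *Lrp5* and *Lrp6*, and none to the other 8. The number of receptor genes below 0 was 8 under every scaling and filter, 7 with the index block, 6 with day 2 alone and 6 to 9 with 1 library left out. The count of 4 genes with an unadjusted p below 0.05 was 2 without extraction day in the model, 0 with the index block, 1 with day 2 alone and 1 to 3 with 1 library left out. It was 1 without control replicate 1 and 1 without KO replicate 3, and 2 without fl/fl replicate 3 or without KO replicate 4. For extraction day that count of 4 ranged from 1, without fl/fl replicate 1, to 5. The 2 genes without overlap became 4 without fl/fl replicate 1 and 5 without fl/fl replicate 2 or without KO replicate 3. The count was 3 without KO replicate 5 and stayed at 2 without fl/fl replicate 3 or without KO replicate 4. Groups of fewer libraries overlap less often, so these counts cannot be set against that of all 6 libraries. With the longest transcript as length, 4 of 10 genes kept their place in the order of levels.

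The sign turned for 3 genes, all close to 0 in the fit of all libraries. *Fzd1* was at -0.61 with the index block and 0.0787 with day 2 alone, and ranged from -0.45 to 0.28 with 1 library left out, with 0.0800 without fl/fl replicate 1, 0.28 without fl/fl replicate 3 and 0.0786 without KO replicate 3. *Lgr4* was at 0.00579 with the index block and 0.0530 with day 2 alone, and ranged from -0.0925 to 0.0616, with 0.0616 without fl/fl replicate 1 and 0.0532 without KO replicate 3. *Fzd7* ranged from -0.10, without KO replicate 4, to 0.24. The other 7 genes kept their sign in all 14 alternatives. The cause of these changes was not tested.

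No paired analysis was run, because the labels do not pair control libraries with KO libraries. The genotypes share the replicate number 3, but control replicate 3 was extracted on day 2 and KO replicate 3 on day 1. The lowest count of a receptor gene in a library was 88. How far counting and how far the spread between libraries limit the precision was not tested.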
